A study of Mus musculus with 26 samples.

Results

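A set of 8 less-studied photoreceptor transcripts was followed through 5 experiments on chromatin inhibitors in the rd10 mouse, whose rods die after a mutation in the rod phosphodiesterase gene Pde6b. They were 2610034M16Rik, AI847159, BC027072, Nxnl1, Nxnl2, Gramd2, Fam3c and Ppap2c. The 8 were chosen by name, because earlier results of these data had shown them higher after the inhibitors, and each was matched to 1 Ensembl gene among the 37991 in the table of read counts. All 8 passed the filter on low counts in all 6 comparisons described here.

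The study collected 22 whole retinas and 4 libraries of sorted rods. Retina mice were homozygous rd10 and received intraperitoneal injections from postnatal day 9 (PN9) to PN24 of an inhibitor or of saline. The labels call these daily, but for DZNep the study's text gives daily doses at first and then a lower dose on every other day, and the methods give a DMSO, PEG300 and Tween-80 diluent for UNC1999. DZNep and UNC1999 were used against EZH2, which trimethylates histone H3 lysine 27, with 4 control and 2 treated retinas for DZNep and 3 of each for UNC1999. UNC0642 was used against the methyltransferases EHMT2 and EHMT1, which act on histone H3 lysine 9, with 2 retinas of each kind. Romidepsin, an inhibitor of histone deacetylases, had 3 retinas of each kind. For the sorted rods, rd10 mice carried EGFP under the Nrl promoter, which is active in rods, and were injected daily over the same days, PN9 to PN24, with saline or GSK2879552 (GSK), an inhibitor of the histone demethylase LSD1, with 2 libraries of each kind. Whether a library pooled animals is not stated in the sources used here, so the p-values below measure the spread between these libraries.

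Libraries of the retinas held 13732959 to 36354094 counts and those of sorted rods 7289460 to 19864491. In the 2 control rod libraries the summed level of 23 rod genes was 76771 to 115123 CPM (counts scaled to a common library size), against 11685 to 49055 in the 12 control retinas, and the summed level of 8 Müller glia genes was 194 to 297 CPM against 4198 to 7353. Of 10 retinal pigment epithelium (RPE) markers, 6 were at 0 counts in both control rod libraries, Rpe65, Lrat, Ttr, Best1, Tyr and Tyrp1. Cone markers were not removed by the sort: 12 cone genes summed to 3435 to 5335 CPM in control rods and 1774 to 3070 CPM in control retinas. Bipolar and amacrine cell markers were lower in control rods but still present. Bipolar genes summed to 521 to 868 CPM against 1769 to 2372 CPM, and amacrine genes to 194 to 237 CPM against 1219 to 1685 CPM. The 2 UNC0642 controls stood apart from the other 10 control retinas, with the lowest rod levels (11685 and 11841 CPM summed) and the highest levels of 5 gliosis genes (2195 to 2780 CPM). The second retina treated with DZNep carried more lens transcript, 33.3 CPM summed over 8 lens genes against 2.96 CPM in the first.

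Nxnl1 encodes rod-derived cone viability factor, a thioredoxin-like protein of photoreceptors. Its short form is secreted and supports cones by way of basigin (Bsg) and the glucose transporter encoded by Slc2a1, and Nxnl2 encodes the related second factor. BC027072 is the earlier name of Pcare, a photoreceptor cilium gene whose human counterpart is mutated in a form of retinitis pigmentosa, and the protein works with WASF3 on actin at the base of the outer segment. Ppap2c, now Plpp2, encodes a lipid phosphate phosphatase, Fam3c a secreted cytokine-like protein, and Gramd2 a GRAM-domain protein of contacts between endoplasmic reticulum and plasma membrane. 2610034M16Rik is the earlier name of Pdzph1, and AI847159 is a non-coding transcript. Counts per gene do not separate the short and the long form of Nxnl1.

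On the genome build of the counts (NCBIM37), Nxnl1 (ENSMUSG00000034829) lies on the minus strand at chr8:74084455-74090548 and Nxnl2 (ENSMUSG00000021396) on the plus strand at chr13:51266394-51270556. BC027072 (ENSMUSG00000044375) is on the minus strand at chr17:72092897-72102225 and 2610034M16Rik (ENSMUSG00000024227) on the same strand of that chromosome at chr17:59018231-59130798. Gramd2 (ENSMUSG00000074259) is on the plus strand at chr9:59527951-59566681. Fam3c (ENSMUSG00000029672) is at chr6:22256520-22306243 and Ppap2c (ENSMUSG00000052151) at chr10:78989175-78996532, both on the minus strand. AI847159 (ENSMUSG00000084826), annotated as a processed transcript on the minus strand at chr2:128984402-129006403, spans the pseudogene Gm14026 on the other strand, but no exon of the pair overlaps. No other annotated gene overlapped the 8.

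To show the regions from which these transcripts start, promoter windows of 250 bases before each RefSeq start (GRCm38.p6) were searched on both strands for TAATCC and TAATCT, forms of the site bound by the photoreceptor factor CRX, and for TGCTGA, a short form of the site of the rod factor NRL. These 3 letter strings were chosen after the windows had been read, and since the first 2 differ in their last letter no match was counted under both. TAATCC was present in 3 of the 8 genes (AI847159, BC027072 and Nxnl2) and in 7.21% of the 27025 genes with a window. TAATCT was present in 2610034M16Rik, AI847159 and Nxnl1, against 8.4% of all genes, and TGCTGA in BC027072, Nxnl1 and Gramd2, against 18.0%. Fam3c and Ppap2c held none of the 3. The 4 windows that follow are shown because Nxnl1 and Nxnl2 parted under Romidepsin, BC027072 had the lowest correlation with the rod genes over the control retinas, and AI847159 was the non-coding member. Each reads 5′ to 3′ on the strand of the gene and ends at the base before the start, with matches on either strand in capitals. The Nxnl1 window is chr8:71566650-71566899 (minus strand), that of Nxnl2 chr13:51170775-51171024 (plus strand), that of BC027072 chr17:71752906-71753155 (minus strand) and that of AI847159 chr2:129180674-129180923 (minus strand).
Nxnl1: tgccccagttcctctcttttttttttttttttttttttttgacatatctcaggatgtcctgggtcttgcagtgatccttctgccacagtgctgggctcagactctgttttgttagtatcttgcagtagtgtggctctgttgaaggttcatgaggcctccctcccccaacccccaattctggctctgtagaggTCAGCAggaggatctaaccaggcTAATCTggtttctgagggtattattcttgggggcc
Nxnl2: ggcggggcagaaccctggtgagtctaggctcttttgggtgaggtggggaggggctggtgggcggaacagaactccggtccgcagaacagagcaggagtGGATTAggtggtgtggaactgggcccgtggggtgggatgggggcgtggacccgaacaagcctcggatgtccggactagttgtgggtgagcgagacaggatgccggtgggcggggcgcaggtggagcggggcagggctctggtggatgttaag
BC027072: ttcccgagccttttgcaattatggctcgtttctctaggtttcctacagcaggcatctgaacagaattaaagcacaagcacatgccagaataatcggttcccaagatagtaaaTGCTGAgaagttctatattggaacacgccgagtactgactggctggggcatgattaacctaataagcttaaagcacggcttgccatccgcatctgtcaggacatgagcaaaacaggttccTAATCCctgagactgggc
AI847159: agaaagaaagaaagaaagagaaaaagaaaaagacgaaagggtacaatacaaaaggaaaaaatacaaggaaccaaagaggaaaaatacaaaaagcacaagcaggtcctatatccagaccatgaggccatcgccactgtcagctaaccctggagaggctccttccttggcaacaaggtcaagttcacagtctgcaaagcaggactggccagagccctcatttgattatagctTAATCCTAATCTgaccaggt
In BC027072 the TAATCC began 18 bases before the start, in AI847159 20 bases before it and directly ahead of a TAATCT, and in Nxnl1 the TAATCT began 35 bases before it. In Nxnl2 the match was on the opposite strand and farther out, 152 to 147 bases before the start. A match is a string of letters and not a measured binding site.

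In control animals all 8 transcripts were higher in sorted rods than in whole retina. They were chosen as photoreceptor transcripts, so a higher level in sorted rods was likely from the start. Whether the earlier results behind the choice included the rod libraries is not stated in the sources used here. The 12 control retinas are also the controls of the retina experiments on which the 8 were chosen. This comparison is therefore not independent of that choice, and its p-values are no separate support for it. The log2 fold change ranged from 1.55 for BC027072 to 3.39 for AI847159, and each of the 8 was called higher by edgeR's quasi-likelihood test (adjusted p under 0.05 and a log2 fold change above 1). Of all 17829 genes tested, 25.4% were called higher and 38.4% lower, and the median of all genes was -0.28. The median of the 8 was 2.45, that of the 23 rod genes 1.89 (17 called higher, from -0.52 for Pde6a to 3.33 for Pde6b), and that of the 12 cone genes 0.49.

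AI847159 showed the widest step. It was at 498.7 and 485.4 CPM in the 2 control rod libraries and at 23.5 to 69.2 CPM in the 12 control retinas, with a median of 48.6. The log2 fold change was 3.39 ± 0.28 (SE, adjusted p = 9.26e-09, edgeR). Gramd2 followed, at 281.5 and 243.1 CPM in rods and 16.8 to 44.9 CPM in retinas with a median of 24.9, a log2 fold change of 3.35 ± 0.23 (adjusted p = 9.26e-10, edgeR). For both, every rod library lay above every retina.

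Among the thioredoxin-like pair, Nxnl1 was at 456.9 and 722.4 CPM in rods and 37.2 to 199.6 CPM in retinas (median 105.9), and Nxnl2 at 164.8 and 236.8 CPM against 21.2 to 53.2 CPM (median 34.3). Their log2 fold changes were 2.38 ± 0.394 and 2.51 ± 0.226 (SE, adjusted p = 3.42e-05 and 2.81e-08, edgeR). The second control rod library had the higher value of both, and it also had the higher summed level of rod genes, 115123 against 76771 CPM, and of cone genes, 5335 against 3435 CPM. The part of rods and of cones in the Nxnl1 and Nxnl2 levels was not tested.

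The other 4 had smaller or similar steps. Ppap2c was at 126.8 and 171.0 CPM in rods against 9.15 to 35.4 CPM, a log2 fold change of 2.83 ± 0.337, and 2610034M16Rik at 357.9 and 285.9 CPM against 26.4 to 165.1 CPM, a log2 fold change of 2.18 ± 0.412. Fam3c gave 1.69 ± 0.198. BC027072, the most abundant of the 8, was at 1271.7 and 1176.5 CPM in rods against 295.6 to 641.6 CPM, and its log2 fold change was the lowest at 1.55 ± 0.238 (adjusted p = 1.55e-05, edgeR). The rods and the retinas did not overlap for any of the 8, which was also so for 35.3% of all genes in this direction. Rods and retinas differed in sort, library kit (SMART-Seq against a stranded polyA kit) and mouse line as well, and these cannot be told apart here. Against the 3 controls of the UNC1999 series alone, BC027072 gave 1.06 and 2610034M16Rik 1.60, and all 8 remained called.

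Levels per length put the 8 in a similar but not identical order. In control rods AI847159 had 312.6 ± 5.97 CPM per kb of exon (SD, n = 2), BC027072 244.6 ± 13.5, Nxnl1 212.3 ± 67.6 and Nxnl2 172.7 ± 43.7. Nxnl1 differed from BC027072 and from Nxnl2 by less than its own SD, whereas the libraries of BC027072 and Nxnl2 did not overlap. Lower, and apart by less than the largest SD among them, came Ppap2c (90.5 ± 19.0 CPM per kb), Fam3c (78.6 ± 11.2) and 2610034M16Rik (77.1 ± 12.2), and Gramd2 was the lowest at 42.7 ± 4.43. In the 12 control retinas BC027072 led with 83.7 ± 24.4 CPM per kb, followed by Nxnl1 with 40.8 ± 17.9, Nxnl2 with 30.5 ± 8.43, AI847159 with 29.9 ± 10.5 and Fam3c with 24.4 ± 5.53. 2610034M16Rik (17.0 ± 9.0), Ppap2c (12.8 ± 5.24) and Gramd2 (4.19 ± 1.33) were the lowest. Neighbours in this order differed by less than the larger SD of the pair, except that BC027072 was above Nxnl1 and Gramd2 below Ppap2c.

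**Figure D1:**
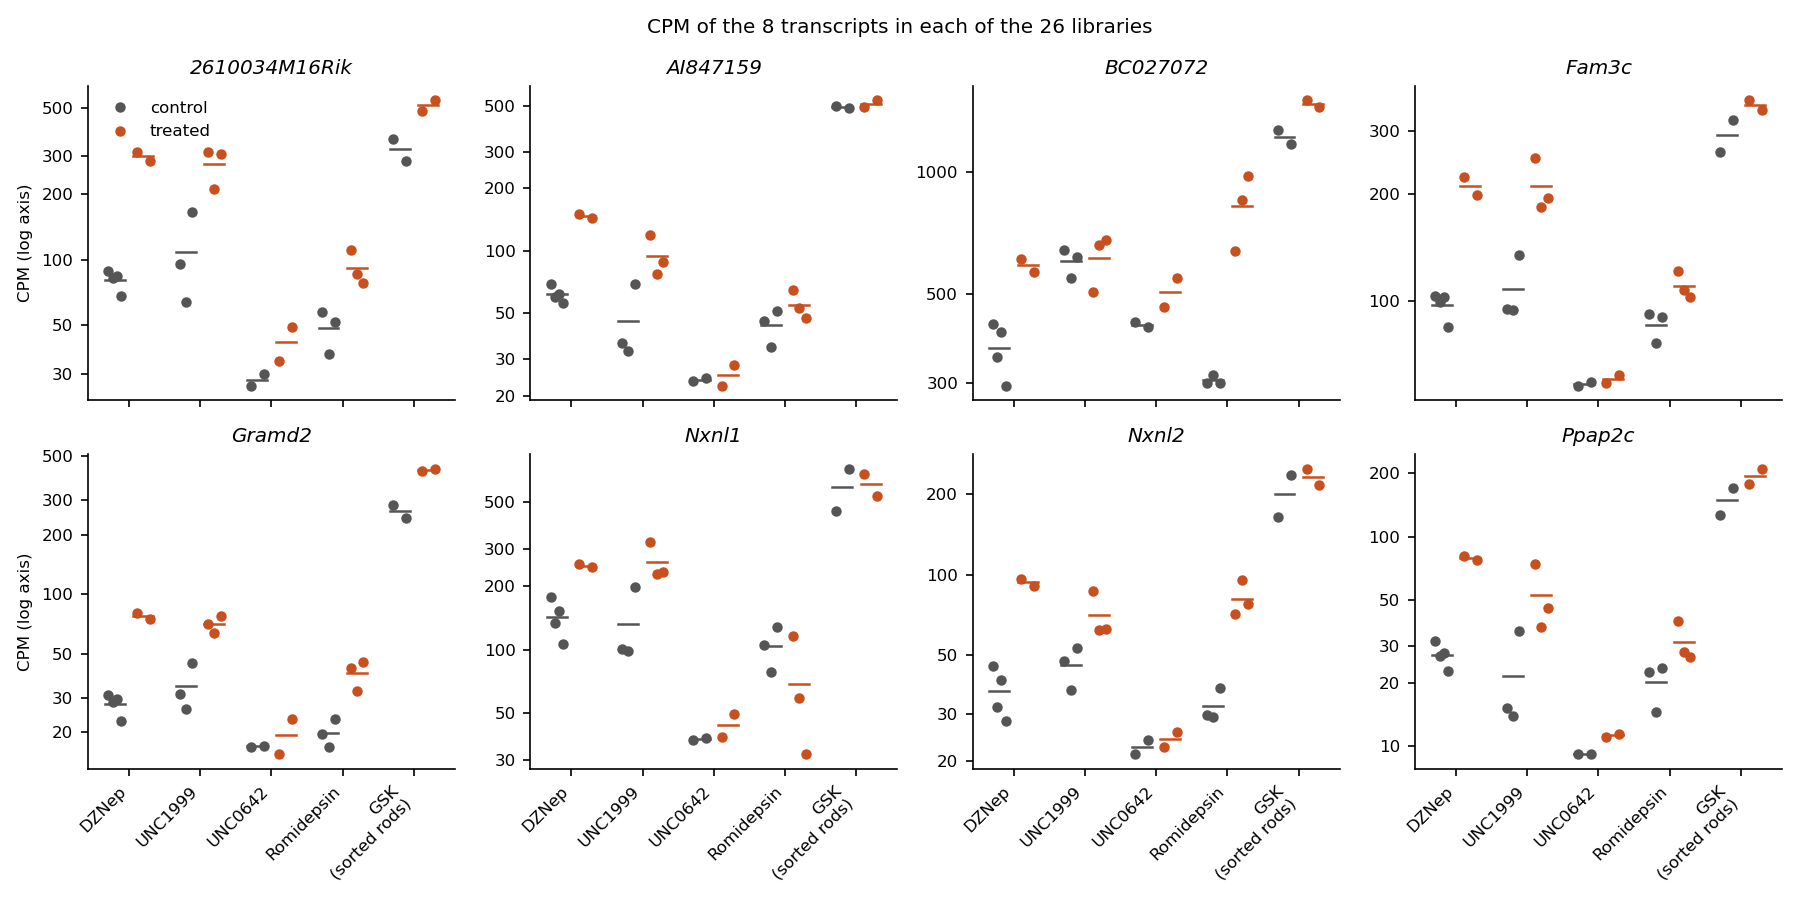
CPM of each of the 8 transcripts (log axis, a scale of its own in each panel) in every library by experiment, control in grey and treated in orange, with a bar at the group mean. Sorted rods sit above all control retinas in every panel, the DZNep groups do not overlap in any, and treated Nxnl1 under Romidepsin runs from 115.8 down to 31.9 CPM.

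Across the 12 control retinas, 7 of the 8 followed the rod score, the mean log2 CPM of the 23 rod genes. The relation was computed for the 8 only, so the share of all genes that did the same is not known. Pearson's r was 0.98 for Fam3c (Spearman's rho 0.94), 0.97 for Nxnl1 (rho 0.88), 0.94 for Nxnl2 (rho 0.97), 0.93 for 2610034M16Rik (rho 0.89), 0.90 for Gramd2 (rho 0.93), 0.88 for Ppap2c (rho 0.86) and 0.86 for AI847159 (rho 0.83). Over these 7 the largest permutation p was 0.00029 for r and 0.00177 for rho, among 8 relations computed. The permutations exchanged libraries across experiments and library series, so these p-values ignore that grouping. The 8 were chosen as photoreceptor transcripts, so a relation to rod genes was likely from the start. These retinas were also controls of the experiments on which the 8 were chosen. The p-values are therefore no separate support for that choice. Without the 2 retinas farthest from the median rod score, which were the UNC0642 controls, r was 0.64 for AI847159, 0.70 for Ppap2c and 0.87 to 0.93 for the other 5. The permutation p of r was then 0.0452 for AI847159 (0.0517 adjusted over the 8) and 0.0247 for Ppap2c (0.0329 adjusted). Within the 9 controls of the library series G-981, which left out the UNC1999 controls, r was 0.88 to 0.99 for the 7.

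BC027072 was the exception, with r = 0.29 and rho = 0.34 (permutation p = 0.359 and 0.277). Its r was -0.23 within the 9 G-981 controls, and that sign rested on the 2 UNC0642 controls: without them r was 0.80 in the G-981 controls, above the 0.76 of 2610034M16Rik there, and 0.62 over the other 10 control retinas. Over those 10 AI847159 was close to it, at 0.64. By experiment, the BC027072 levels of the controls overlapped in part, and only the UNC1999 controls stood apart from all others. The 3 Romidepsin controls were at 300.5, 314.9 and 300.7 CPM and the 4 DZNep controls at 295.6 to 419.8 CPM, whereas the 2 UNC0642 controls were at 424.7 and 412.7 CPM in spite of the lowest rod scores, and the 3 UNC1999 controls were at 547.7 to 641.6 CPM. Library series and experiment cannot be told apart for the UNC1999 controls.

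**Figure D2:**
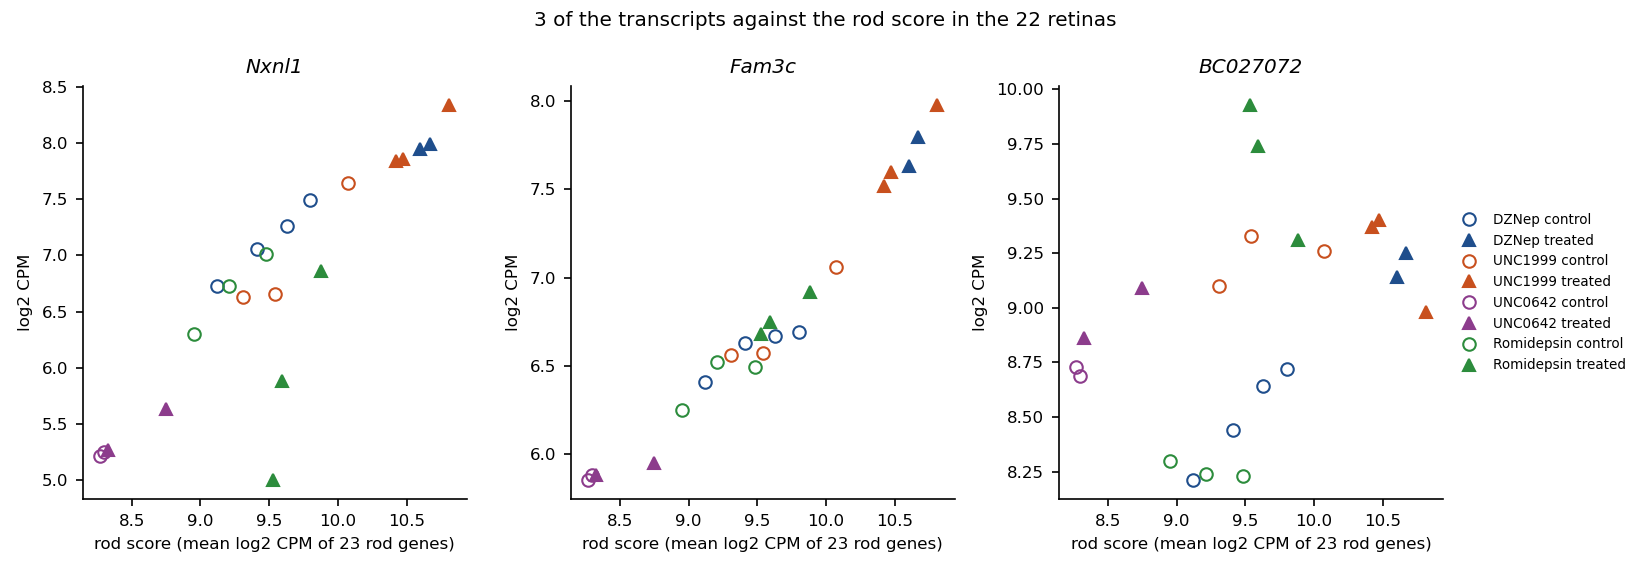
log2 CPM of Nxnl1, Fam3c and BC027072 against the rod score (mean log2 CPM of 23 rod genes) in the 22 retinas, open circles for controls and filled triangles for treated retinas, 1 colour per experiment. Fam3c rises with the rod score across the 22, and BC027072 does not follow it. Nxnl1 rises with it too, but with scatter. Nxnl1 lies farthest below the rod score in Romidepsin-treated replicates 2 and 3 (differences of -3.71 and -4.53).

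DZNep was the treatment after which all 8 were higher without overlap. In these retina experiments the values are a description with no test, since the transcripts were chosen on them. Groups did not overlap in this direction for 24.7% of all 16477 genes tested, and 1.02% were called higher and 0.686% lower. The median log2 fold change of the 8 was 1.31 and that of the 23 rod genes 1.10, all 23 higher. In whole retina, more surviving rods and more RNA of a gene per rod cannot be told apart.

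2610034M16Rik was highest in fold. Its 4 DZNep controls were at 88.6, 82.5, 84.6 and 68.4 CPM and its 2 treated retinas at 313.8 and 283.0 CPM, a log2 fold change of 1.88 ± 0.0897 (SE), 0.78 above the rod median. Ppap2c went from 22.8 to 31.6 CPM in controls to 80.6 and 77.7 CPM, a log2 fold change of 1.54 ± 0.102. Gramd2 went from 22.8 to 30.8 CPM to 80.1 and 74.8 CPM (1.47 ± 0.103). In all 3 both treated retinas lay above the highest control by more than the whole control range.

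Nxnl2 was at 45.6, 31.9, 40.2 and 28.3 CPM in the controls and 96.6 and 90.6 CPM after DZNep (log2 fold change 1.36 ± 0.155), and AI847159 at 56.2 to 69.1 CPM and then 149.8 and 143.1 CPM (1.25 ± 0.0723). Fam3c, at 84.6 to 102.8 CPM and then 222.9 and 198.4 CPM, gave 1.12 ± 0.0807, beside the rod median. The last 2 were below the rod median: Nxnl1, at 106.0 to 178.7 CPM and then 254.5 and 247.5 CPM (0.81 ± 0.158), and BC027072, at 295.6 to 419.8 CPM and then 610.8 and 566.3 CPM (0.68 ± 0.12).

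After UNC1999, 7 of the 8, all but BC027072, were higher without overlap, as were 13.9% of all 15775 genes tested, and 0.298% of genes were called higher and 0.0697% lower. The median of the 8 was 1.01 and the rod median 0.99. 2610034M16Rik was at 96.2, 64.2 and 165.1 CPM in the controls and 312.7, 211.1 and 306.0 CPM in the treated retinas, a log2 fold change of 1.35 ± 0.317. Ppap2c was at 15.3, 14.0 and 35.4 CPM and then 74.3, 37.2 and 45.8 CPM (1.28 ± 0.386), so that its lowest treated retina was barely above its highest control. Control replicate 3 had the highest value of 7 of the 8, BC027072 excepted, and the highest rod score of the 12 control retinas.

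The other log2 fold changes after UNC1999 were 1.05 ± 0.181 for Gramd2, 1.04 ± 0.288 for AI847159, 0.98 ± 0.277 for Nxnl1, 0.96 ± 0.168 for Fam3c and 0.62 ± 0.168 for Nxnl2. BC027072 overlapped, at 641.6, 547.7 and 615.1 CPM in controls and 503.6, 661.6 and 677.1 CPM in treated retinas, with a log2 fold change of 0.03 ± 0.122. Its lowest value was in the first treated retina, which had the highest rod score of the 22. Without control replicate 3 the median of the 8 was 1.35 and BC027072 was at 0.05.

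RPE markers moved with the treatment in both experiments. The summed level of 10 RPE genes was 75.1 to 190.9 CPM in the DZNep controls and 227.6 and 371.4 CPM after DZNep, with 10 of 10 higher and 4 called, and 140.1 to 164.1 CPM against 430.8 to 499.1 CPM for UNC1999, with 10 of 10 higher and 7 called. Markers of microglia and gliosis had negative log2 fold changes in both experiments, and most Müller glia markers fell after DZNep. After DZNep 12 of 12 microglia genes had negative log2 fold changes (median -0.82, 1 past the adjusted threshold), and their summed level was 168.2 and 187.8 CPM against 209.5 to 435.9 CPM in controls. Of 8 Müller glia genes 7 fell after DZNep (adjusted p under 0.05, edgeR, as for 9.72% of all genes), with 5252 and 5850 CPM summed against 6680 to 7353 CPM, and 5 of 5 gliosis genes were negative (median -0.86, 3 past the adjusted threshold). After UNC1999 12 of 12 microglia genes were again negative (median -1.17, 2 called), with 129.8 to 167.0 CPM summed against 216.1 to 379.8 CPM, and so were 5 of 5 gliosis genes (median -0.98, 0 past the adjusted threshold and 1 at an unadjusted p under 0.05, edgeR's quasi-likelihood test). Müller glia genes were mixed there, 5 negative and 3 positive (median -0.31, 0 past the adjusted threshold). Their summed levels overlapped, at 4193 to 5820 CPM against 4198 to 5743 CPM. Neuron markers were negative after DZNep in 9 of 9 bipolar, 5 of 5 amacrine and 8 of 8 ganglion cell genes. After UNC1999 they were negative in 5 of 9, 2 of 5 and 4 of 8. The part of these cells in the results of the 8 was not tested.

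After UNC0642 the values were small and 4 of 8 were higher without overlap, against 24.7% of all 16321 genes, with 0 genes called in either direction by edgeR's quasi-likelihood test (2407 at an unadjusted p under 0.05, and 23 higher and 11 lower by its likelihood ratio test, with 5 and 3 by DESeq2). 2610034M16Rik was at 26.4 and 30.0 CPM in controls and 34.5 and 49.4 CPM in treated retinas, a log2 fold change of 0.59 ± 0.179. Ppap2c gave 0.32 ± 0.133, BC027072 0.29 ± 0.0965 and Nxnl1 0.24 ± 0.133, all without overlap, while Gramd2 (0.20 ± 0.198), Nxnl2 (0.11 ± 0.12), AI847159 (0.09 ± 0.132) and Fam3c (0.07 ± 0.0783) overlapped. The median of the 8 was 0.22 and the rod median 0.32. The second treated retina had the higher value of all 8 and the higher rod score (8.75 against 8.33), and without it the median of the 8 was 0.03. The fit that left out control replicate 1 called 14 higher and 85 lower. Microglia genes were negative in 12 of 12 (median -0.65, 0 past the adjusted threshold and 6 at an unadjusted p under 0.05, edgeR's quasi-likelihood test), and their part was not tested.

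Romidepsin spread the 8 apart. BC027072 and Nxnl2 had the highest fold of the set, Gramd2 and 2610034M16Rik came next, and Nxnl1 was lower in 2 of 3 treated retinas than in every control. Of the 8, 6 were higher without overlap, against 13.2% of all 16049 genes tested, and 0.405% of genes were called higher and 0.156% lower. The median of the 8 was 0.78 and the rod median 0.42.

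BC027072 was at 300.5, 314.9 and 300.7 CPM in the Romidepsin controls and at 636.7, 851.9 and 977.5 CPM in the treated retinas. The log2 fold change was 1.43 ± 0.163, which was 1.02 above the rod median, where after UNC1999 it had been 0.96 below. The highest BC027072 values of the 22 retinas were thus in treated replicates 2 and 3 of this experiment. Nxnl2 was at 29.9, 29.2 and 37.7 CPM in controls and 71.0, 95.6 and 77.4 CPM in treated retinas, a log2 fold change of 1.34 ± 0.156.

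Nxnl1 went the other way in part. Its controls were at 105.7, 78.3 and 128.8 CPM and its treated retinas at 115.8, 58.8 and 31.9 CPM, with a log2 fold change of -0.60 ± 0.399, so the groups overlapped through the first treated retina. Without that retina the value was -1.20, and without treated replicate 3 it was -0.25. The ratio of Nxnl2 to Nxnl1, computed after these values had been seen and taken per kb of exon, was 0.676, 0.891 and 0.698 in the controls and 1.46, 3.88 and 5.79 in the treated retinas. In the other retinas it ranged from 0.569 in a DZNep control to 1.5 in a UNC0642 control, and in sorted rods from 0.783 to 0.958.

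**Figure D3:**
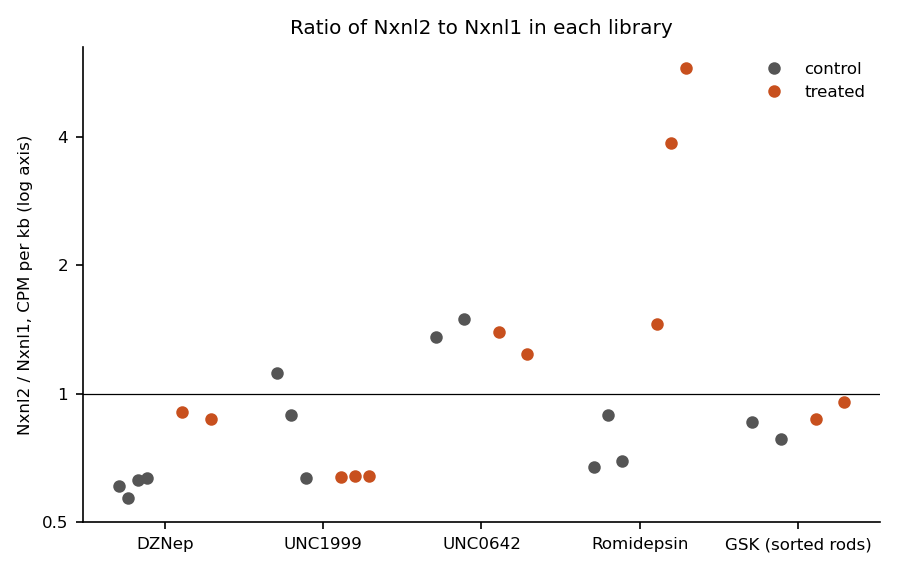
Ratio of Nxnl2 to Nxnl1 in CPM per kb of exon (log axis) in each library, control in grey and treated in orange. The 3 Romidepsin-treated retinas are at 1.46, 3.88 and 5.79, and the highest ratio outside the Romidepsin-treated retinas is 1.5.

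Of 12 cone genes tested under Romidepsin 11 had negative log2 fold changes, 9 of them without overlap (12.8% of all genes in this direction), with a median of -0.72, from -1.62 for the cone arrestin gene Arr3 to 0.30 for Gnb3, and 0 passed the adjusted threshold (9 at an unadjusted p under 0.05, edgeR's quasi-likelihood test). The mean log2 CPM of the cone genes was 6.41, 5.86 and 5.63 in the treated retinas and 6.54 to 6.87 in the controls. Nxnl1 stood in the same order in the treated retinas, but so did the rod score (9.88, 9.59 and 9.53). In the controls the orders of Nxnl1 and of the cone genes differed. Of 10 RPE genes 9 had negative values (median -0.93) and Best1 gave 0.37, with 0 past the adjusted threshold and 7 at an unadjusted p under 0.05 by the same test, and their summed level was 60.8 to 81.3 CPM against 120.3 to 132.0 CPM. Müller glia genes were negative in 7 of 8 (median -0.44, 0 past the adjusted threshold and 7 at an unadjusted p under 0.05) and microglia genes in 11 of 12 (median -0.70, 1 past the adjusted threshold). Gliosis genes went the other way, with 5 of 5 positive (median 0.43). Of these 0 passed the adjusted threshold and 1 was at an unadjusted p under 0.05, by the same test. The part of these cells in the Nxnl1 result was not tested.

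The other members under Romidepsin were Gramd2, at 16.8 to 23.4 CPM in controls and 32.3 to 45.2 CPM in treated retinas (log2 fold change 1.00 ± 0.177), and 2610034M16Rik, at 37.1 to 57.7 CPM and then 78.7 to 111.1 CPM (0.92 ± 0.193). Ppap2c gave 0.64 ± 0.222, Fam3c 0.37 ± 0.124 and AI847159 0.33 ± 0.179, the last with overlapping groups.

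In rods sorted from GSK-treated mice none of the 8 passed the test, and 0 of all 14478 genes did by edgeR's quasi-likelihood test (711 at an unadjusted p under 0.05, with 44 called higher and 24 lower by the likelihood ratio test and 27 and 15 by DESeq2). Without treated replicate 2, 192 genes were called higher and 18 lower, and without treated replicate 1, 33 and 18. Gramd2 was at 281.5 and 243.1 CPM in control rods and 419.2 and 429.7 CPM in treated rods, a log2 fold change of 0.61 ± 0.201 (SE, adjusted p = 0.975, edgeR). 2610034M16Rik was at 357.9 and 285.9 CPM and then 484.2 and 540.4 CPM, a log2 fold change of 0.59 ± 0.215 (adjusted p = 0.987, edgeR). Both had treated libraries above the control libraries.

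Ppap2c (0.30 ± 0.215), Fam3c (0.21 ± 0.197) and BC027072 (0.19 ± 0.205) also had groups that did not overlap, which makes 5 of 8 against 21.9% of all genes. Nxnl2 (0.14 ± 0.222), AI847159 (-0.02 ± 0.194) and Nxnl1 (-0.02 ± 0.253) overlapped. AI847159 was between 485.4 and 531.0 CPM in all 4 libraries. The median of the 8 was 0.20, that of the rod genes 0.10 and that of the cone genes -0.92, with 11 of 12 cone genes lower, 8 at an unadjusted p under 0.05 and 0 past the adjusted threshold.

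**Figure D4:**
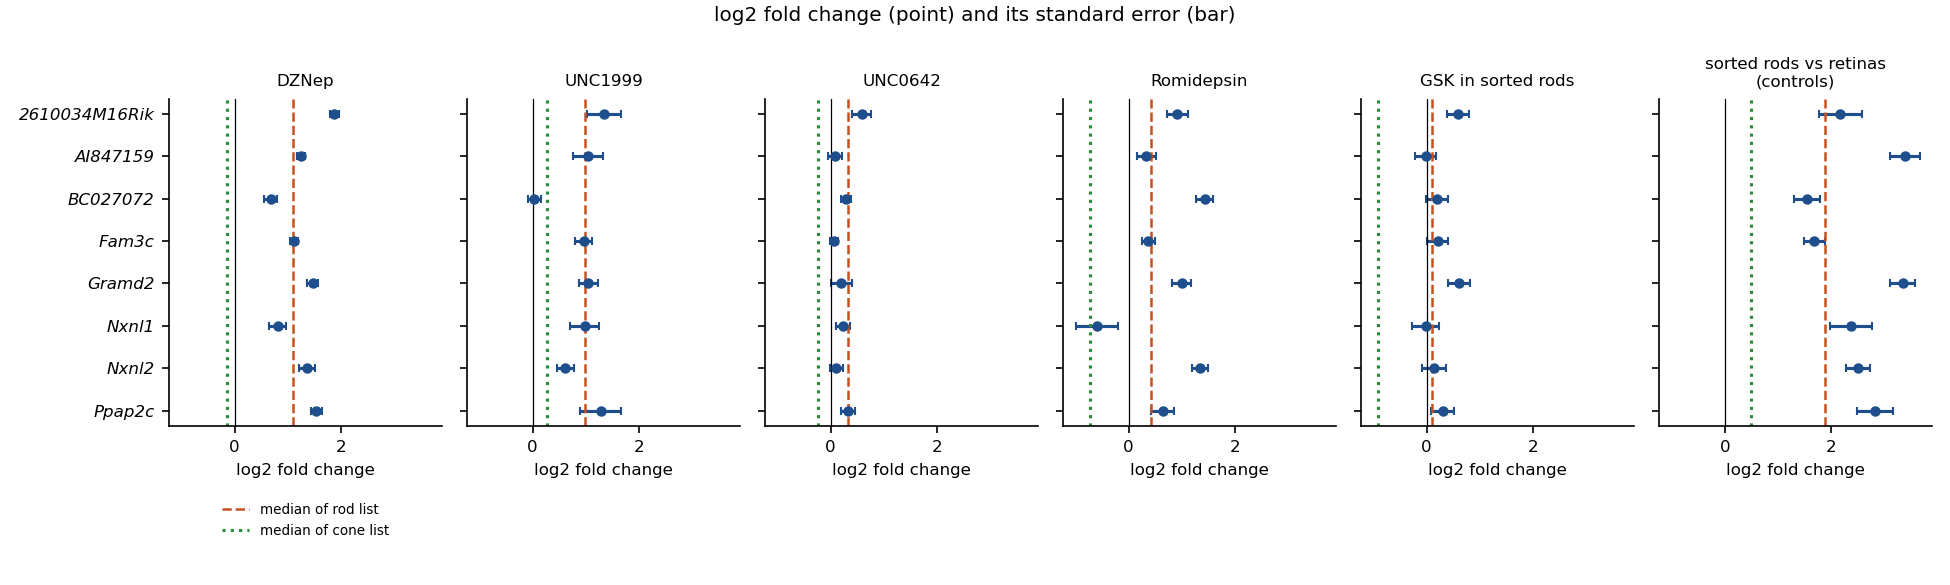
log2 fold change of each of the 8 (point) with its standard error (bar) in the 6 comparisons, on a common axis, with the median of the 23 rod genes as a dashed line and of the 12 cone genes as a dotted line. 2610034M16Rik is to the right of the rod median in every panel, and BC027072 and Nxnl1 lie on opposite sides of it under Romidepsin.

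Partners and relatives of the 8 differed in where they were found. Slc16a1, a lactate transporter carried by basigin, was called higher in control rods (log2 fold change 1.55 ± 0.182, adjusted p = 6.91e-07, edgeR), whereas Bsg was called lower (-1.05 ± 0.233, adjusted p = 0.000578) and Slc2a1 was lower by less than the fold threshold (-0.47, adjusted p = 0.00802). After DZNep, Slc16a1 and Slc2a1 rose by 0.50 and 0.48 on the log2 scale (adjusted p = 0.00285 and 0.00964, edgeR), both under the fold threshold, and Bsg gave -0.09 (adjusted p = 0.356). After UNC1999 the values were 0.56, 0.35 and 0.11 in the same order, with adjusted p of 0.0813 for Slc16a1 and 0.0679 for Slc2a1. After UNC0642 and Romidepsin no adjusted p of the 3 was under 0.22.

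Wasf3, whose protein is the partner of PCARE, was called lower in control rods (-1.81 ± 0.142, adjusted p = 4.77e-09, edgeR) and rose by 0.32 after DZNep (adjusted p = 0.00268). Among 5 other GRAM-domain genes, 0 were called higher in rods (25.4% of all genes) and 3 lower (38.4% of all genes), Gramd1b, Gramd3 and Gramd4. Gramd4 was at 0.549 and 0.127 CPM (4 and 2 counts) in control rods and 31.9 to 39.6 CPM in control retinas, where Gramd2 was at 281.5 and 243.1 CPM and 16.8 to 44.9 CPM. Ppap2b, a second lipid phosphatase gene, was at 5.76 and 8.86 CPM in rods and 111.7 to 151.3 CPM in retinas, and it fell by 0.65 on the log2 scale after DZNep (adjusted p = 0.000397, edgeR). Ppap2a was higher in rods by 0.75 (adjusted p = 0.000125), under the fold threshold. Fam3a was higher in rods by 0.50 (adjusted p = 5.04e-05) and between -0.11 and 0.16 in the 4 retina experiments, with no adjusted p under 0.2, and Fam3b did not pass the filter on low counts.

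Of 16 genes of the wider thioredoxin system, 0 were called higher in control rods and 5 lower, where 25.4% and 38.4% of all genes were, so the share called lower was below that of all genes. Their median was -0.49 beside -0.28 for all genes, with values from -4.42 for nucleoredoxin (Nxn) to 0.72 for Txnl1. After DZNep 5 of the 16 fell (adjusted p under 0.05, as did 9.72% of all genes) and 0 rose (12.9% of all genes), with values from -0.60 for Txnip, which encodes an inhibitor of thioredoxin, to 0.33 for Txnrd3. In the other 4 comparisons none of the 16 passed the adjusted threshold by edgeR's quasi-likelihood test, with 6, 6, 4 and 0 at an unadjusted p under 0.05 after UNC1999, UNC0642, Romidepsin and GSK. After UNC1999 the range ran from -0.98 (Txnip) to 0.09 (Glrx2), and after Romidepsin from -0.39 (Prdx6) to 0.83 (Txnrd3).

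Over the 22 retinas, the 7 transcripts other than BC027072 had pairwise correlations of log2 CPM from 0.55 to 0.99, and BC027072 had from -0.01 to 0.69 with them, so the ranges overlapped. These correlations mix experiments, treatments and depth and are given as a description. AI847159 and Ppap2c had the closest pair of profiles (r = 0.99), and 2610034M16Rik had r = 0.98 with Fam3c and 0.97 with Gramd2. Nxnl1 and Nxnl2 had r = 0.55, and BC027072 had -0.01 with Nxnl1, 0.60 with Gramd2 and 0.69 with Nxnl2. Among all 17274 genes, the 3 most like each transcript were Plekhf2, Slc25a25 and Optn for 2610034M16Rik (r = 0.986 to 0.980), Gpr152, Gm16119 and Add1 for Nxnl1 (0.979 to 0.973), and Llgl2, Sec14l2 and Ccdc64 for Nxnl2 (0.984 to 0.972). They were Sntg2, Slc25a25 and Bbs5 for Gramd2 (0.983 to 0.974), Impdh1, Agpat3 and Tdrd7 for Fam3c (0.989 to 0.982), Ppap2c, Vopp1 and Igsf9 for AI847159 (0.987 to 0.983) and AI847159, Gpsm1 and Vopp1 for Ppap2c (0.987 to 0.983). For BC027072 the 3 were Rfx2, Ptp4a3 and Elf2, at lower values of 0.935, 0.921 and 0.917.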

How the data were processed

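Retinas and sorted rods of rd10 mice were profiled by RNA-seq, on polyA RNA with a stranded kit for retinas and with SMART-Seq for rods. The deposited table held raw counts per Ensembl gene. Per the labels and methods, the authors trimmed reads with BBDuk, aligned them to NCBIM37 with HISAT2 2.2.1 and counted them with HTSeq 0.11.2 on Ensembl release 67. Whether HTSeq counted by strand is not given in the sources used here. Of 37991 gene IDs, 37205 had a symbol in GENCODE M1 (NCBIM37), and the 8 members were matched there.

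Groups came from sample titles. Some genotype and treatment labels rise by 1 from library to library, which was read as a filled series. The members and gene lists were chosen with earlier results of these data known. Each comparison was fitted alone, without a covariate, with edgeR 4.0.16 in R 4.3.3 (filterByExpr, TMM, quasi-likelihood test). A gene was called at a Benjamini-Hochberg adjusted p under 0.05 with an absolute log2 fold change above 1. CPM used TMM over all 26 libraries, and log2 CPM a prior count of 2. Fold changes came from each fit. The standard error (SE) was worked back from the test, as the absolute log2 fold change divided by the square root of its F statistic. Member p-values of the 4 retina experiments were not used, though the SE there rests on the same statistic. Named genes were the 8 in every comparison, all genes of 5 partner and family lists, the ends of the other lists, and the 3 genes most alike to each member. Correlations used 100000 permutations, or exact ones with 9 retinas, made without regard to experiment. In counts simulated at the trended dispersion, the edgeR test called a set minimum of planted changes with the right sign. That check does not measure its power on the real counts. DESeq2 1.42.0 and the other alternatives are described with the limits. Promoter windows came from RefSeq on GRCm38.p6, with 11 windows for the 8 genes. Precision was limited by 2 to 4 libraries a group.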

Additional observations from a re-analysis of the deposited data

How the results depend on the processing

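Leaving out 1 library gave a median log2 fold change of the 8 between 1.23 and 1.40 after DZNep, 0.83 and 1.35 after UNC1999, 0.60 and 0.86 after Romidepsin, 0.12 and 0.35 for GSK in sorted rods, and 2.25 and 2.68 for control rods. For UNC0642 it ran from 0.03 to 0.38 and moved by more than the spread between replicates without either treated retina. In sorted rods under GSK, leaving out 1 library turned the sign of AI847159 (-0.08 to 0.03), Nxnl1 (-0.28 to 0.30) and Nxnl2 (-0.07 to 0.38), and 0 members were called in each case. The number of members called in control rods stayed at 8 in every alternative. The correlation of BC027072 with the rod score turned to -0.23 within the 9 G-981 controls and was 0.80 there without the 2 UNC0642 controls.

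The replicate numbers were not taken as pairs, and deviations of same-numbered libraries correlated between -0.281 and 0.231. With 2 libraries in an arm the deviations mirror each other, so for DZNep, UNC0642 and GSK this could not exclude pairing. Both same-numbered pairs of UNC0642 gave 0.213. With the replicate number as a block, the median of the 8 was 1.24 after DZNep, 1.06 after UNC1999, 0.20 after UNC0642, 0.79 after Romidepsin and 0.20 for GSK, and the block changed the genes called to 97 higher and 92 lower from 168 and 113 (DZNep), 15 and 6 from 47 and 11 (UNC1999), 30 and 94 from 0 and 0 (UNC0642), 75 and 16 from 65 and 25 (Romidepsin) and 2 and 1 from 0 and 0 (GSK). After UNC1999, 174 genes were called higher and 295 lower under the likelihood ratio test and 131 and 221 under DESeq2, and after Romidepsin 281 and 217, and 221 and 164. With no filter on low counts the called genes were 128 and 214 (UNC1999), 41 and 132 (UNC0642), 211 and 156 (Romidepsin) and 130 and 38 (GSK), and with all 22 retinas in 1 fit 159 and 278 (UNC1999), 3 and 0 (UNC0642) and 312 and 208 (Romidepsin). With at least 10 counts in every library 2606 and 3487 were called in control rods. Without UNC1999 control replicate 3, 286 were higher and 520 lower, with 4 to 23 higher and 0 or 1 lower when any other UNC1999 library was left out. Without DZNep treated replicate 1 or 2, 35 or 71 were lower after DZNep. For Romidepsin, without control replicate 2 or 3 or treated replicate 3, 0 were called, against 217 and 121 without treated replicate 1, 101 and 46 without treated replicate 2 and 21 and 60 without control replicate 1. The counts of 0 became 192 and 18 for GSK without treated replicate 2, 33 and 18 without treated replicate 1, and 14 and 85 for UNC0642 without control replicate 1. With 2 libraries in an arm, small differences between members were not detectable.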
